A study of Mus musculus with 9 samples.

Results

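Adenylyl cyclases are membrane enzymes that make cyclic AMP (cAMP), the second messenger that activates protein kinase A. The Gs alpha subunit stimulates all of these membrane cyclases, and the Gi alpha subunits, among them the product of Gnai1, inhibit several of them. The isoforms differ in their second input, so that calcium with calmodulin stimulates some, calcium inhibits others, and G protein beta and gamma subunits potentiate another class. In basal ganglia circuits the dopamine receptors act on cAMP through these enzymes, D1-type receptors raising it and D2-type receptors lowering it.

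The 9 membrane adenylyl cyclase genes, Adcy1 to Adcy9, and Gnai1 were taken by their symbols. These 10 genes were among the 26602 genes with a count and among the 18127 that were tested, so none was lost to the filter on low counts. They were measured in midbrain containing the SNpc, the dopaminergic cell region of the substantia nigra, from 4 DJ-1+/+ mice (labelled WT) and 5 DJ-1-/- mice (labelled DJ-1 KO), 3 to 4 months of age. The mice were untreated, the knockout carried a targeted DJ-1 allele in every cell of the body on a C57BL/6 backcross, and each library came from a different animal. The libraries were 3′ mRNA-seq libraries, in which 1 fragment near the polyadenylated end stands for a transcript and copies of a molecule are counted once through a unique molecular identifier (UMI). Values are given as cpm, the UMI count per 1000000 counts of its library. Because such counts do not grow with transcript length, the cpm of different genes were set side by side.

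Library totals were 841974 to 886085 counts for DJ-1+/+ mice, with 967751 to 1098125 for DJ-1-/- mice. A limit of detection of 3 counts came to 2.73 to 3.56 cpm, which allows for counting error alone. Park7, the gene of DJ-1, had 105 to 132 counts in the DJ-1+/+ and 14 to 29 in the DJ-1-/- mice, a log2 fold change of −2.71 (standard error 0.15, adjusted p = 7.44e-08, edgeR). The dopaminergic marker Th was counted in every library, with 30 to 119 counts. The pieces of tissue were not alike. The summed cpm of 12 cerebellar neuron markers was 1525 in DJ-1+/+ replicate 1 and between 505 and 779 in the other 8 libraries. The summed cpm of 10 choroid plexus markers was 1191 in DJ-1+/+ replicate 4 and at most 650 elsewhere. All 12 cerebellar and all 10 choroid plexus markers were on average lower in DJ-1-/- mice, 7 of each with an unadjusted p under 0.05. All 12 dopaminergic markers were higher, 5 with an unadjusted p under 0.05, and their summed cpm was 626 to 1108 in DJ-1+/+ and 866 to 1168 in DJ-1-/- mice. Xist, the RNA of the inactive X chromosome, was at 153 to 182 cpm in 6 libraries and at 0 to 1.95 cpm in the other 3, which were replicate 5 of the DJ-1-/- mice together with replicates 1 and 4 of the DJ-1+/+ mice. In whole tissue, fewer cells of a type and less RNA per cell cannot be told apart.

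The midbrain expressed every member, at levels from 8.47 to 143 cpm over the 9 libraries. Gnai1 (143 cpm) and Adcy1 (137 cpm) were the highest, and Gnai1 exceeded Adcy1 in 6 libraries, equalled it in 1 and was below it in the others, so their order was not resolved. Adcy5 followed at 95.3 cpm and was below Adcy1 in 8 of 9 libraries. Adcy2 came next at 77.4 cpm, below Adcy5 in 9 of 9 libraries, and then Adcy9 at 61.2 cpm, below Adcy2 in 9 of 9. Adcy9 and Adcy3 (57.3 cpm) were not separated, since Adcy9 was higher in 6 libraries and equal in 1, and their log2 ratio was 0.10 ± 0.23 (SD, n = 9). Adcy3 exceeded Adcy6 (37.4 cpm) in 9 of 9 libraries. Adcy6 exceeded Adcy7 (29.1 cpm) in 7 of 9, and Adcy7 and Adcy8 (28.6 cpm) were not separated, with Adcy7 higher in 5 of 9 libraries. Adcy4 was last at 8.47 cpm, with 5 to 12 counts per library, and below Adcy8 in 9 of 9 libraries.

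**Figure D1:**
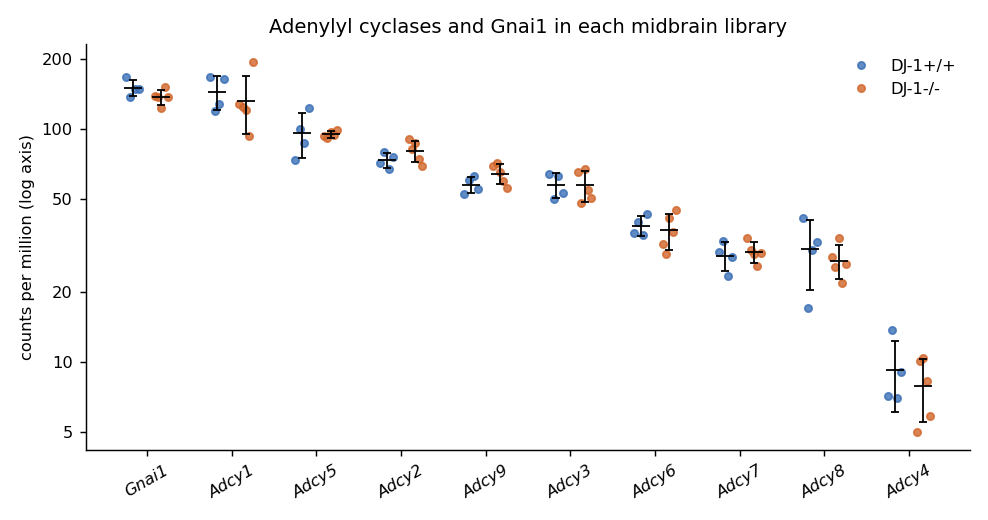
Expression in cpm (log axis) of the 9 adenylyl cyclases and Gnai1 in each of the 4 DJ-1+/+ and 5 DJ-1-/- midbrain libraries, 1 point per library. The genotypes overlap in every gene, and Adcy4 lies below the other 9 genes in both.

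Within the 9 cyclases, Adcy1 made up 25.6% ± 4.40 of the summed transcripts (SD, n = 9), Adcy5 17.9%, Adcy2 14.6%, Adcy9 11.6% and Adcy3 10.8%. Adcy6, Adcy7 and Adcy8 each gave between 5.35% and 7.03%, and Adcy4 gave 1.61%. The sum of all 9 was 535 ± 35.9 cpm (SD, n = 4) with DJ-1 and 530 ± 40.8 cpm (SD, n = 5) without it. The calcium-stimulated isoforms Adcy1, Adcy3 and Adcy8 together held 43.3% ± 5.68 of it in DJ-1+/+ and 40.6% ± 4.03 in DJ-1-/- mice. The calcium-inhibited isoforms Adcy5 and Adcy6 held 25.0% ± 3.69 and 24.9% ± 1.89. The isoforms potentiated by beta and gamma subunits, Adcy2, Adcy4 and Adcy7, held 20.8% ± 2.54 and 22.4% ± 2.36, and Adcy9 alone held 10.8% ± 1.502 and 12.2% ± 1.57. The ranges of the 2 genotypes overlapped in each class.

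**Figure D2:**
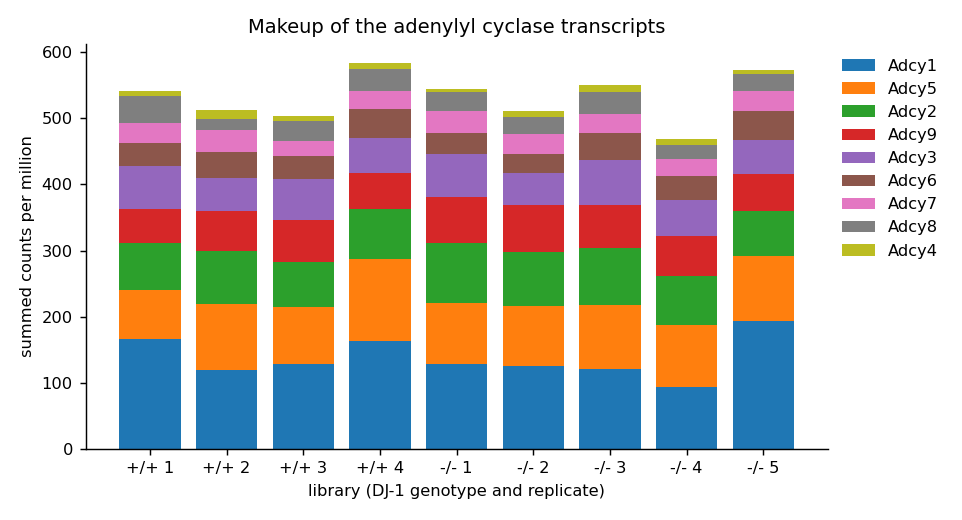
Summed cpm of the 9 adenylyl cyclases in each library, stacked by gene, with DJ-1 genotype and replicate on the horizontal axis. The sums lie between 504 and 583 in DJ-1+/+ and between 468 and 573 in DJ-1-/- libraries, and Adcy1 is a larger part than Adcy5 in 8 of 9 libraries.

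RefSeq start regions (GRCm38.p6, 250 bases before to 50 after the start) were listed for 8 of the 10 genes, with 11 starts, and not for Adcy6 and Adcy8. A set of 3 stretches is shown because it covers genes at high, middle and low levels among the 10. Each is read on the minus strand of its gene, from 130 to 31 bases before the RefSeq start, with every CG in capitals, and none overlaps an annotated exon.
Gnai1, chr5:18360444-18360543: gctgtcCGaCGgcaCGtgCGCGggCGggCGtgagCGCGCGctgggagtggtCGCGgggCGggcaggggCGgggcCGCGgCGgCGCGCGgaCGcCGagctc
Adcy2, chr13:68999572-68999671: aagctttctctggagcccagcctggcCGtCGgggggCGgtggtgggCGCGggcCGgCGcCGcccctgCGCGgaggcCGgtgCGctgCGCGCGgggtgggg
Adcy4, chr14:55784103-55784202: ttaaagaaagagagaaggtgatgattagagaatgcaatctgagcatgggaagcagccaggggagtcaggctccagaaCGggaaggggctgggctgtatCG

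These stretches hold 22, 15 and 2 CG pairs. Over the whole 300 bases, G and C made up 80% of the Gnai1 region, 79% of Adcy5, 78.3% of Adcy9, 75% of Adcy2 and 74% of Adcy1, against a median of 52.7% over 32851 listed regions. The regions of Adcy4 (58%) and of the 3 Adcy7 starts (54.7% to 57%) were nearer to that median, and the 2 Adcy3 starts were at 68.7% and 56%. The full cAMP response element TGACGTCA, searched on both strands, was in none of the 11 regions and in 1.79% of all listed regions. Its shorter core TGACG, which the full element contains, was in the Adcy9 region and 1 Adcy7 region, and in 20.8% of all. The GC box GGGCGG was in 7 of the 11 regions and in 35.7% of all listed regions. These were 1 region for each of 7 of the 8 genes, and Adcy4 was the gene without it. TATAAA was in none of the 11 and in 13.6% of all. These matches describe letters and were not tied to any binding measurement.

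Between genotypes, none of the 10 genes passed the test. In edgeR's quasi-likelihood fit no member reached an adjusted p under 0.05, a call made for 1 of 18127 genes (0.00552%), and each member's adjusted p was 0.9999. No member reached an unadjusted p of 0.05 with edgeR or with DESeq2, where edgeR gave one to 511 genes (2.82% of those tested). The cpm of the genotypes overlapped for all 10, where 226 genes (1.25%) had cpm without overlap. Exact two-sided permutation tests of mean cpm gave p between 0.119 and 0.952, with 0.00794 the smallest that 4 against 5 mice allow. The mean was higher in DJ-1-/- mice for Adcy2, Adcy7 and Adcy9 and lower for the other 7, with a median log2 fold change of −0.04 beside 0.01 over all genes tested. Leaving Adcy4 aside, the 95% intervals of the other 9 genes reached no lower than 0.631-fold and no higher than 1.35-fold. With the cerebellar marker score as a covariate, again no member had an unadjusted p below 0.05 (edgeR). The part of the dopaminergic and choroid plexus markers in these values was not tested.

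**Figure D3:**
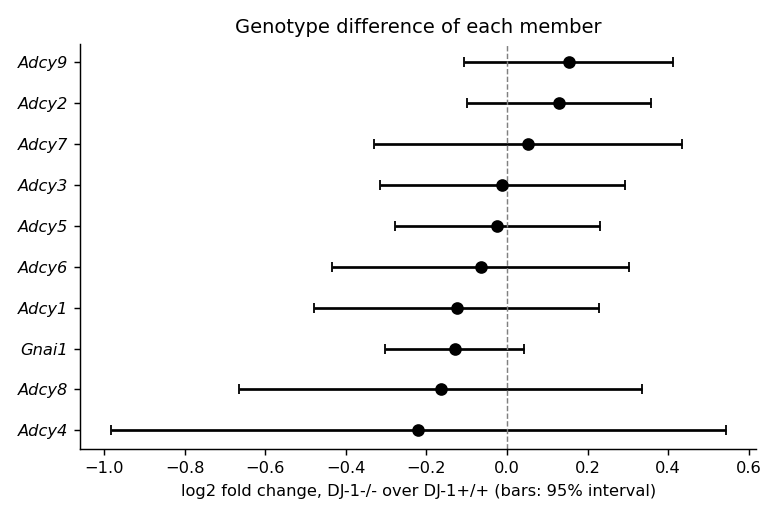
Log2 fold change of each member, DJ-1-/- over DJ-1+/+, from edgeR's quasi-likelihood fit over all genes tested, with bars for the 95% interval. Every bar crosses 0, from −0.22 for Adcy4 to 0.15 for Adcy9, and the Adcy4 bar is the widest.

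Among the calcium-stimulated isoforms, Adcy1 (ENSMUSG00000020431, chromosome 11, 7063489 to 7178506, plus strand) is a neuronal cyclase linked to synaptic plasticity. It stood at 166, 119, 128 and 164 cpm in the DJ-1+/+ mice and at 128, 125, 121, 93.0 and 193 cpm in the DJ-1-/- mice. The highest and the lowest library were both DJ-1-/-. The means were 144 ± 24.1 cpm (SD, n = 4) and 132 ± 36.8 cpm (SD, n = 5), a log2 fold change of −0.13 (standard error 0.17, edgeR unadjusted p = 0.465). Without DJ-1-/- replicate 5 it was −0.31, with an unadjusted edgeR p of 0.0235 and no call after adjustment. With Xist as a covariate it was 0.08, with the cerebellar score 0.01, and without DJ-1+/+ replicates 1 and 4 it was 0.10. In the 6 libraries high in Xist alone it was −0.08.

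Adcy1 was the member whose libraries differed most for their counts. Its variance over the 9 libraries was 6.63 times what counting alone gives (chi-square per degree of freedom), a value reached by 2.30% of the 10441 genes with at least 200 counts, whose median was 1.07. The other 9 members lay between 0.338 and 1.62, and 7 of them were below that median, so their spread was close to that of counting.

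Adcy1 was high in 3 libraries, at 193 cpm in DJ-1-/- replicate 5, 166 cpm in DJ-1+/+ replicate 1 and 164 cpm in DJ-1+/+ replicate 4, and between 93.0 and 128 cpm in the other 6. Replicate 1 of the DJ-1+/+ mice was the library with the cerebellar markers, where Gabra6, a GABA receptor subunit of cerebellar granule cells, had 102 counts and at most 2 elsewhere. DJ-1+/+ replicate 4 and DJ-1-/- replicate 5 had the highest summed cpm of 10 thalamic and other forebrain markers, 1296 and 1245, with 581 to 777 in the other libraries. Of that list 8 markers were tested, 4 higher and 4 lower in DJ-1-/- mice, and Rora, its most abundant gene and a nuclear receptor of thalamic and cerebellar neurons, stood at 355 and 339 cpm in those 2 libraries and at 158 to 205 cpm in the others. Tcf7l2, a transcription factor of thalamic neurons, stood at 323 and 322 cpm there and at 81.1 to 166 cpm elsewhere. Prkcd and Lef1 of the same list also peaked there. Prkcd was at 213 and 196 cpm against at most 124 cpm elsewhere, and Lef1 at 125 and 92.6 cpm against at most 32.0 cpm. Some genes of the list did not follow. Neurod6, a factor of cortical and hippocampal neurons, was at its lowest in the same 2 libraries, at 6.77 and 16.6 cpm against 18.2 to 48.6 cpm. The 3 libraries high in Adcy1 were also the 3 with Xist at 1.95 cpm or less. The regional markers and Xist cannot be told apart in these 3 libraries, which were singled out after their values were seen. Across all 9 libraries, log2(cpm + 1) of Adcy1 and the mean log2(cpm + 1) of the cerebellar list had Pearson's r = 0.461 (exact permutation p = 0.236) and Spearman's rho = 0.55 (exact permutation p = 0.133), with adjusted p of 0.315 and 0.177 over the 4 relations computed, and r was 0.373 without the 2 libraries farthest from the median score.

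**Figure D4:**
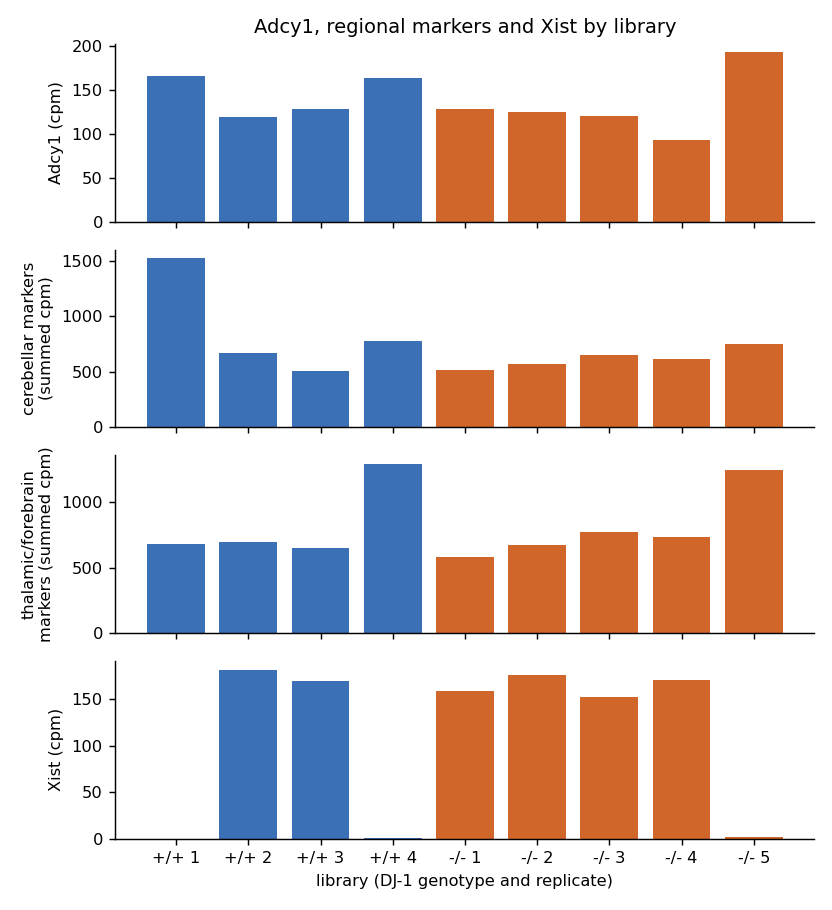
Adcy1, the summed cerebellar and thalamic or forebrain markers, and Xist in each library, all in cpm, with DJ-1 genotype and replicate on the horizontal axis. The 3 libraries with Adcy1 at 164 cpm or more are the 3 with Xist at 1.95 cpm or less, 1 of them high in summed cerebellar and the other 2 in summed thalamic or forebrain markers.

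Adcy3 (ENSMUSG00000020654, chromosome 12, 4133103 to 4213525, plus strand), known from olfactory neurons and neuronal primary cilia, was the member closest to equality. It was at 50.01 to 64.1 cpm in the DJ-1+/+ and at 48.3 to 67.1 cpm in the DJ-1-/- mice, a log2 fold change of −0.01 with a 95% interval from −0.32 to 0.29. One of its exons overlaps an exon of Cenpo on the opposite strand, which had 45 counts in all. Exons of Adcy2 and Adcy6 likewise overlap antisense genes, Gm35161 with 11 counts and Gm29331 with 0, and whether strand was used in counting is not given in the sources used here.

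Adcy8 (ENSMUSG00000022376, chromosome 15, 64697084 to 64922296, minus strand) is the other neuronal calcium-stimulated cyclase. It was at 41.6, 17.05, 30.2 and 32.7 cpm in the DJ-1+/+ and at 28.0, 25.5, 34.0, 21.7 and 26.3 cpm in the DJ-1-/- mice. The DJ-1+/+ values spanned those of all DJ-1-/- mice, with the library rich in cerebellar markers at the top. Its log2 fold change of −0.16 (standard error 0.24) was 0.02 without that library and −0.37 without DJ-1+/+ replicate 2, the lowest one.

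Of the calcium-inhibited isoforms, Adcy5 (ENSMUSG00000022840, chromosome 16, 35154877 to 35305738, plus strand) is the principal cyclase of striatal projection neurons. Its levels were 73.6, 100, 87.3 and 123 cpm in the DJ-1+/+ mice and 93.1, 91.1, 97.0, 94.0 and 98.4 cpm in the DJ-1-/- mice. The DJ-1-/- mice lay within 91.1 to 98.4 cpm, inside the wider range of the DJ-1+/+ mice. The means were 96.0 ± 20.96 and 94.7 ± 2.97 cpm, a log2 fold change of −0.02 (standard error 0.12, edgeR unadjusted p = 0.844), and 0.12 without DJ-1+/+ replicate 4.

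Adcy5 was related to the striatal neuron markers over the 9 libraries by Pearson's r but, after adjustment, not by Spearman's rho. With the mean log2(cpm + 1) of 10 such markers, Pearson's r was 0.865 (exact permutation p = 0.00372, 0.0149 after adjustment over the 4 relations) and Spearman's rho was 0.767 (exact permutation p = 0.0214, adjusted 0.0510). Without DJ-1+/+ replicates 3 and 4, the libraries farthest from the median score, r was 0.774 (exact permutation p = 0.0365, n = 7). The minimum of 6 libraries set for a correlation was met by neither genotype. Among the DJ-1-/- libraries, replicate 5, the highest in Adcy5 at 98.4 cpm, had a score of 4.62. Replicate 2, the lowest at 91.1 cpm, had a score of 4.86. The DJ-1-/- values of Adcy5 differed by less than its counting error in a library (10.5%). Their order therefore cannot show whether Adcy5 and the score rose together. The summed cpm of the markers was 487 to 717 in DJ-1+/+ and 505 to 572 in DJ-1-/- mice, 2 of the 10 had a higher mean in DJ-1-/- mice and 8 a lower one, and none was at 0 in every library. Drd1, the D1 dopamine receptor of striatal neurons and one of the 10, ranged from 2.33 to 41.8 cpm, both ends in DJ-1+/+ mice. The highest library for both Drd1 and Adcy5 was DJ-1+/+ replicate 4. Some of the 10 did not follow Adcy5. Penk was highest in DJ-1+/+ replicate 1 (140 cpm), where Adcy5 was lowest at 73.6 cpm. Ppp1r1b was lowest in DJ-1+/+ replicate 2 (59.1 cpm), where Adcy5 was at 100 cpm.

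**Figure D5:**
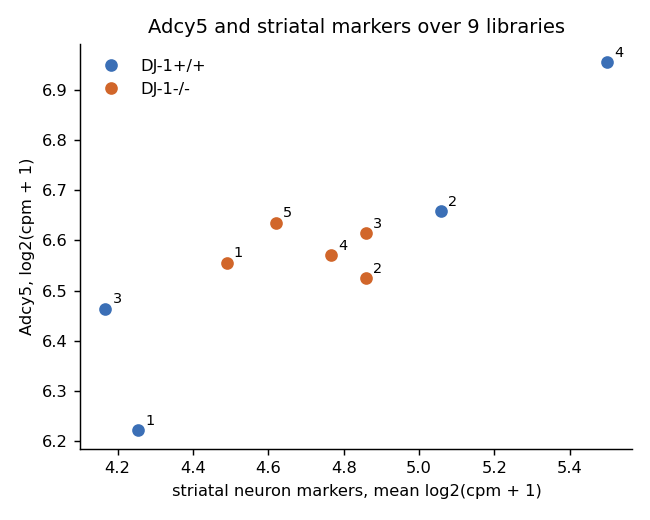
Adcy5 as log2(cpm + 1) against the mean log2(cpm + 1) of 10 striatal neuron markers in 9 libraries, coloured by DJ-1 genotype and numbered by replicate. Over all 9 points r is 0.865, with DJ-1+/+ replicate 4 at the upper right. The DJ-1-/- libraries differ in Adcy5 by less than its counting error, so a rise among them cannot be judged.

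Adcy6 (ENSMUSG00000022994, chromosome 15, 98589973 to 98610076, minus strand), a widely expressed calcium-inhibited cyclase, was at 34.9 to 42.9 cpm in DJ-1+/+ and 29.1 to 44.8 cpm in DJ-1-/- mice. Its log2 fold change was −0.07 (standard error 0.17), with both the highest and the lowest library in the DJ-1-/- group.

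In the class potentiated by beta and gamma subunits, Adcy2 (ENSMUSG00000021536, chromosome 13, 68620043 to 68999541, minus strand) was the most abundant. It was at 71.3, 79.6, 67.5 and 75.6 cpm in the DJ-1+/+ mice and at 90.1, 82.0, 86.7, 74.4 and 69.2 cpm in the DJ-1-/- mice. A total of 3 DJ-1-/- libraries were above all DJ-1+/+ libraries and the other 2 were within their range. The means were 73.5 ± 5.24 and 80.5 ± 8.62 cpm, a log2 fold change of 0.13 (standard error 0.11, edgeR unadjusted p = 0.263, exact permutation p = 0.198).

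Adcy7 (ENSMUSG00000031659, chromosome 8, 88272403 to 88329962, plus strand), an isoform also found in immune cells, was at 23.3 to 33.0 cpm in DJ-1+/+ and 25.8 to 34.0 cpm in DJ-1-/- mice, a log2 fold change of 0.05 (standard error 0.18). Against 10 microglia markers its Pearson's r was 0.654 (exact permutation p = 0.0574, adjusted 0.115) and its Spearman's rho was 0.75 (exact permutation p = 0.0255, adjusted 0.0510). Without the 2 libraries farthest from the median score r was 0.736 (exact permutation p = 0.0601, n = 7), so the relation did not pass. The summed microglia markers varied little, with sums of 645 to 671 cpm with DJ-1 and 616 to 732 cpm without it.

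Adcy4 (ENSMUSG00000022220, chromosome 14, 55769057 to 55784095, minus strand), known from vessels among other tissues, was at 7.13, 13.6, 6.98 and 9.03 cpm in the DJ-1+/+ and at 5.005, 10.02, 10.3, 8.27 and 5.85 cpm in the DJ-1-/- mice. At 5 to 12 counts per library its 95% interval ran from 0.506-fold to 1.46-fold, the widest of the 10. Its relation to 10 endothelial markers did not pass, with r = −0.169 (exact permutation p = 0.661) and rho = −0.10 (exact permutation p = 0.810), neither lowered by adjustment, and r was 0.510 without the 2 libraries farthest from the median score.

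Adcy9 (ENSMUSG00000005580, chromosome 16, 4287529 to 4420498, minus strand), an isoform that responds poorly to the activator forskolin, had the largest positive log2 fold change of the 10. It was at 52.3, 60.2, 62.8 and 55.3 cpm in the DJ-1+/+ mice and at 69.1, 71.0, 64.99, 59.9 and 55.5 cpm in the DJ-1-/- mice. A total of 3 DJ-1-/- libraries, replicates 1 to 3, were above all DJ-1+/+ libraries, and these were the same 3 as for Adcy2. The means were 57.7 ± 4.76 and 64.1 ± 6.404 cpm, a log2 fold change of 0.15 (standard error 0.12, edgeR unadjusted p = 0.232, exact permutation p = 0.135). A processed pseudogene, Gm6142, lies on the same strand inside the gene without exon overlap and had 82 counts in all.

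Gnai1 (ENSMUSG00000057614, chromosome 5, 18265135 to 18360355, minus strand) had the smallest p of the 10. It was at 166, 138, 149 and 148 cpm in the DJ-1+/+ mice and at 138, 137, 123, 151 and 137 cpm in the DJ-1-/- mice. A total of 3 DJ-1-/- libraries were below all DJ-1+/+ libraries, but DJ-1-/- replicate 4 was above 3 of the 4 DJ-1+/+ libraries. The means were 150 ± 11.9 and 137 ± 9.96 cpm, a log2 fold change of −0.13 (standard error 0.08, edgeR unadjusted p = 0.132, exact permutation p = 0.119), which ranked 1614 of the 18127 genes by p. The related inhibitory subunits were Gnai2, at 188 and 202 cpm (log2 fold change 0.10), and Gnai3, at 60.3 and 56.5 cpm (−0.10), in DJ-1+/+ and DJ-1-/- mice.

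The members varied together in some pairs and in opposite directions in others. Over the 36 pairs of the 9 members with at least 20 cpm, the median r of log2(cpm + 1) across libraries was −0.04 beside 0.00 over all pairs of genes compared, and 17 pairs were above 0. The values ran from −0.65 for Adcy6 with Adcy9 to 0.68 for Adcy2 with Adcy9. Among the genes most like a member over the 9 libraries, out of 10928 genes with at least 20 cpm, were Cramp1l (r = 0.947) and Zcchc14 for Adcy1, and Hdac9 (r = 0.962), Map3k13 and Nek1 for Adcy5. They were U2af1 (r = 0.970), Rpl37rt and Tmed2 for Adcy2, Nbl1 (r = 0.969), Acads and Zfp248 for Adcy9, and Taf2 (r = 0.989), Dhx16 and Rnf122 for Adcy8. For Adcy3 they were Stoml2 (r = 0.937), Ireb2 and Nyap1, for Adcy6 Yeats4 (r = 0.944), Nol10 and Gm43829, for Adcy7 Ppp1r14c (r = 0.924) and Lrrc47, and for Gnai1 Kcmf1 (r = 0.934), Lmbrd2 and Rps27. With 9 libraries such values are usual, since the median gene had a best r of 0.950, and only the Adcy8 value was near the top, where 99.3% of genes had a best r no higher. Libraries share their depth and tissue makeup across all these genes.

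Around the cyclases, 115 other genes of the cAMP pathway were looked up by role, and 109 had enough counts to be tested. They divided into 55 higher and 54 lower in DJ-1-/- mice. None had an adjusted p under 0.05, and 5 (4.59%, beside 2.82% of all genes) had an unadjusted p under 0.05 in edgeR, 2 higher and 3 lower, while 2 did in DESeq2. Adcy10, the soluble cyclase, had 0 counts in every library, which allows up to 2.73 to 3.56 cpm in a library taken alone.

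Upstream, the stimulatory subunit Gnas was at 439 and 429 cpm in DJ-1+/+ and DJ-1-/- mice and Gnal, its olfactory and striatal relative, at 146 and 148 cpm. Gnao1, the most abundant inhibitory-class subunit, was at 291 and 288 cpm. Of 9 beta and gamma subunits, Gng3 was the most abundant at 196 and 205 cpm. Gnb2, a beta subunit, was at 121 ± 12.6 and 100 ± 10.4 cpm, a log2 fold change of −0.27 (edgeR unadjusted p = 0.0124). The genotypes overlapped in Gnb2, and its unadjusted p was 0.05 or more in 4 of 20 alternatives. Among them was the cerebellar score as a covariate (edgeR unadjusted p = 0.0853). None of 12 Gs-coupled receptors had an unadjusted p under 0.05, and Adcyap1r1, the receptor of the peptide PACAP, led them at 169 and 174 cpm. Among 19 tested Gi-coupled receptors, led by the GABA-B subunit Gabbr1 at 308 and 310 cpm, Adora1, the A1 adenosine receptor, had a log2 fold change of 0.23 (edgeR unadjusted p = 0.0444). Adra2c, an alpha-2 adrenergic receptor, was at 18.8 and 28.2 cpm, a log2 fold change of 0.58 (edgeR unadjusted p = 0.0442). Both overlapped between the genotypes. The unadjusted p was 0.05 or more in 14 of 20 alternatives for Adora1 and in 9 of 20 for Adra2c. Without DJ-1+/+ replicate 4 the edgeR unadjusted p was 0.146 for Adora1 and 0.102 for Adra2c.

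Downstream, no subunit or inhibitor of protein kinase A, A-kinase anchoring protein, Epac exchange factor or CREB factor had an unadjusted p under 0.05. The leading genes were Prkar1a, a regulatory subunit of protein kinase A, at 271 and 276 cpm, the anchoring protein Akap9 at 186 in both, the exchange factor Rapgef4 at 125 cpm over all 9 libraries, and the coactivator Crebbp at 176 and 183 cpm. Rgs4, which speeds the shut-off of Gi signalling, was at 203 and 207 cpm. Pde4b, a cAMP phosphodiesterase, was at 181 and 169 cpm. Pde1b, a calmodulin-dependent phosphodiesterase, was the 1 pathway gene without overlap (0.917% of those tested, beside 1.25% of all genes), at 129 to 141 cpm in DJ-1+/+ and 103 to 127 cpm in DJ-1-/- mice, a log2 fold change of −0.19 (edgeR unadjusted p = 0.0384). That p was 0.05 or more in 11 of 20 alternatives, among them DESeq2. Ppp1r1b, which encodes the protein kinase A target DARPP-32, was at 98.6, 59.1, 80.3 and 103 cpm in DJ-1+/+ and at 64.0 to 73.8 cpm in DJ-1-/- mice, a log2 fold change of −0.32 (edgeR unadjusted p = 0.0387). Ppp1r1b is one of the 10 striatal markers, and without DJ-1+/+ replicates 1 and 4 its edgeR unadjusted p was 0.857. Arpp19, a related phosphatase inhibitor, was at 145 and 142 cpm.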

How the data were processed

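RNA from midbrain of 4 DJ-1+/+ and 5 DJ-1-/- mice was made into QuantSeq 3′ libraries, and the authors deposited raw unique molecular identifier (UMI) counts per Ensembl gene, unnormalized. The submitters' processing notes name fastp 0.20.0, STAR 2.7.3a, Subread featureCounts 2.0.0, UMI-tools 1.0.0 and GRCm38. The use of strand in counting is not given in the sources used here. Groups came from the labels. Genes not listed for a library were set to 0. Symbols and positions were taken from GENCODE M21, start regions from RefSeq GRCm38.p6.

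Genes whose 9 libraries together held 10 or more counts were tested with edgeR 4.0.16 (TMM, glmQLFit, glmQLFTest, Benjamini-Hochberg) in R 4.3.3, with genotype as the only term. Single genes were compared as cpm by exact permutation, computed with numpy 2.4.6. Relations used log2(cpm + 1), with ranks and adjustment from scipy 1.17.1. The code was tested on simulated data. Alternatives were DESeq2 1.42.0, other scalings and filters, thinned counts, a covariate (Xist or the cerebellar score), a block for replicate number, and each library left out. A pair of alternatives was chosen after seeing the data, leaving out DJ-1+/+ replicates 1 and 4, and keeping only the 6 libraries with Xist at 153 cpm or more.

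Named genes were the 10 members, Park7, pathway genes with an unadjusted p under 0.05, the most abundant gene of each role, the most abundant marker of a list that moved with a member, and the 3 genes most like each member of at least 20 cpm. Xist, Th, Gabra6, Tcf7l2, Prkcd, Lef1, Neurod6, Drd1, Penk, Gnal, Gnai2, Gnai3 and Adcy10 were added after their values were seen. The members and all lists were chosen with earlier results of these data known. A few genes that this rule names are not reported here.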

Additional observations from a re-analysis of the deposited data

Results flagged for a closer look

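The cerebellar neuron marker score, the mean log2(cpm + 1) of 12 genes, was 6.73 in DJ-1+/+ replicate 1 and lay far from the remaining DJ-1+/+ libraries, with the gap to the next library making up 0.865 of the group's range. Adcy1 and Adcy8 were both at their DJ-1+/+ maximum in that library. The endothelial marker score was 5.98 in DJ-1+/+ replicate 3, with a gap of 0.860 of the range. Adcy4 was at its DJ-1+/+ minimum of 6.98 cpm there, but its 6 counts were also its count in DJ-1+/+ replicate 1 (7.13 cpm). Among 28 groups examined 2 stood apart in this way, where chance gives about 1 in 20, or 1.4. No member itself stood apart in either genotype.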

How the results depend on the processing

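Of 199 member log2 fold changes under 20 alternatives, 174 kept the reported sign and 2 had an unadjusted p under 0.05. Adcy2, Adcy9 and Gnai1 kept their sign in all 20, and Adcy4 was not tested under edgeR's own filter on low counts. None of 100 exact permutation p-values under alternatives was below 0.05. The 2 were Adcy1 without DJ-1-/- replicate 5 and with the replicate number as a block, both at −0.31. Its value was 0.08 with Xist as a covariate, 0.10 without DJ-1+/+ replicates 1 and 4, and −0.08 in the 6 libraries high in Xist. Adcy5 was 0.12 without DJ-1+/+ replicate 4, 0.02 without replicates 1 and 4 and 0.01 in thinned counts. Adcy8 was −0.37 without DJ-1+/+ replicate 2, 0.02 without replicate 1, 0.08 with the cerebellar score as a covariate, 0.20 without DJ-1+/+ replicates 1 and 4 and 0.21 in the 6 libraries high in Xist. The cause was not tested.

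Members with an unadjusted p under 0.05 (0 as reported) numbered 1 with the replicate block and 0 to 1 with each library left out. Pathway genes with one (5) numbered 2 with DESeq2, 2 in thinned counts, 3 with Xist and 1 with the cerebellar score as a covariate, and 2 to 8 with each library left out. Over all genes (511), DESeq2 gave 235, every gene with a count 802, edgeR's filter 338, and leaving out each library 338 to 732. Genes with an adjusted p under 0.05 (1) numbered 36 with every gene kept, 8 with the block, 2 with the cerebellar score, 3 in the 6 libraries high in Xist, and 1 to 2 with each library left out. The labels do not say that the replicate numbers pair the samples, so the block is an alternative only. Same-numbered libraries had deviation correlations of 0.296, 0.0518, −0.117 and −0.193, which are too few to decide on a pairing. With 4 and 5 mice the intervals limit what can be said of each gene, most of all for Adcy4 at 5 to 12 counts.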
